A study of Mus musculus with 2 samples.

Results

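Metabotropic glutamate receptor genes are described here by the EGR1 peaks found at them in mouse frontal cortex. The members were Grm2, Grm3, Grm4, Grm5, Grm6, Grm7 and Grm8, and a peak was taken as theirs when its centre lay in the gene body or within 10 kb of a transcription start site (TSS) of the gene in GENCODE M21. By this rule 9 of the 12014 peaks belonged to the 7 genes. The peaks came from ChIP-seq with an antibody to EGR1 on frontal cortex of male F1 hybrid mice (C57BL6N/129SvEv) at 6 weeks of age, with no treatment named in the labels. The authors merged 2 ChIP replicates into 1 list of positions, each with an irreproducible discovery rate (IDR), which is low where both replicates rank a peak high and is read like a q-value. The input DNA, from the same kind of tissue, is not analysed here. The list gave no reads, signal or value for a single replicate, so the depth behind a peak is unknown and no difference between samples could be tested. The tissue is a mixture of neurons, glia and other cells, and a peak does not tell which of them EGR1 was bound in.

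EGR1 is a zinc finger transcription factor made within minutes of strong synaptic activity and is used as a marker of active neurons. It binds a GC-rich element with a CpG near each end, here written as GCGTGGGCG or GCGGGGGCG. Metabotropic glutamate receptors are G protein-coupled receptors that tune synapses more slowly than the glutamate-gated channels. The group I receptor described here, Grm5, acts through Gq and phospholipase C and sits mostly beside the postsynaptic density. The group II receptors Grm2 and Grm3 and the group III receptors Grm4, Grm6, Grm7 and Grm8 act through Gi/o, and most of them restrain transmitter release. Grm6 is the exception among them, since it is the receptor of ON bipolar cells in the retina.

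Of the 7 genes, 6 had a peak (85.7%) and only Grm6 had none. By the same rule 39.6% of the 21938 protein-coding genes had a peak (95% Wilson interval 39.0 to 40.3, over genes, which are not replicates). The members were chosen with earlier results of these data known, and the difference was not tested. A peak within 2 kb of a TSS of the gene was found at 5 members (Grm3, Grm4, Grm5, Grm7 and Grm8), against 29.6% of protein-coding genes. Grm4 had 3 peaks, Grm8 had 2, and Grm2, Grm3, Grm5 and Grm7 had 1 each, while 4.82% of protein-coding genes had at least 3.

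**Figure D1:**
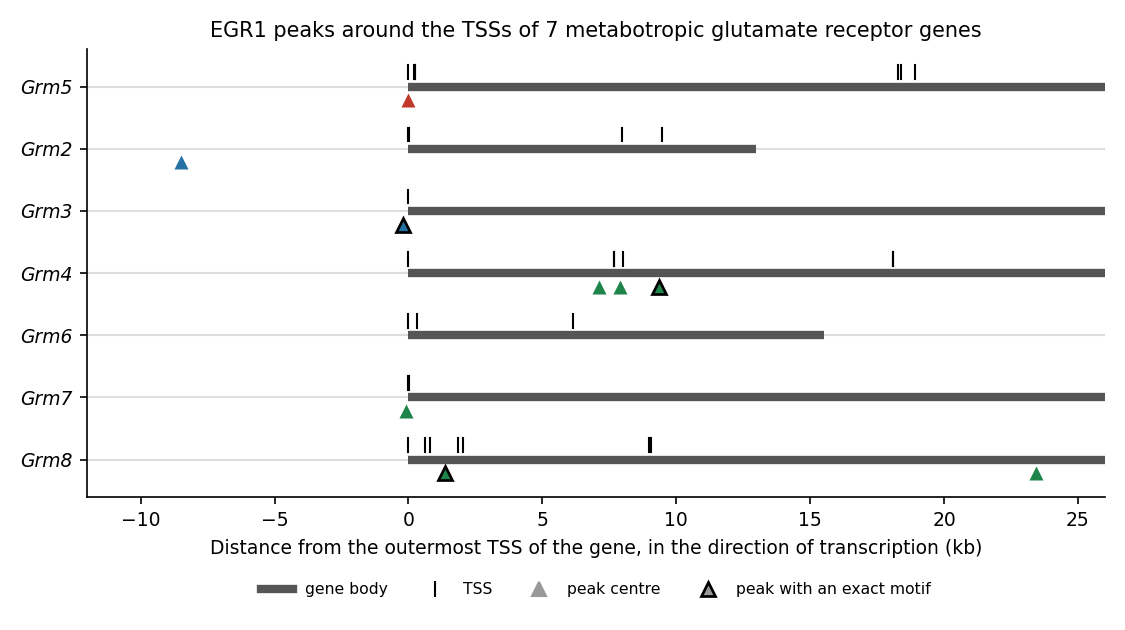
EGR1 peak centres (triangles, outlined where the peak held an exact motif) and annotated TSSs (ticks) of the 7 genes, by distance in kb from the outermost TSS in the direction of transcription. The peaks of Grm5, Grm3 and Grm7 sit within 210 bp of the outermost TSS, the 3 peaks of Grm4 lie between 7102.5 and 9341 bp downstream of it, and the Grm2 peak lies 8487.5 bp upstream.

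The sequences under the peaks are shown first, because the peaks differed in whether they held the EGR1 element. All are read from the mm10 sequence (GRCm38), which is that of C57BL/6J and not of the hybrid mice. The 3 peaks with an exact element are shown by these stretches, with the exact element in capitals, each 5′ to 3′ on the minus strand, the strand of the gene. The Grm3 stretch, chr5:9725338-9725366, is the element with 10 bases to each side. The Grm4 stretch is the whole of its intron peak, the last of 3, chr17:27512008-27512116, and the Grm8 stretch, chr6:28133703-28133812, is the part of its first peak outside annotated UTRs.
Grm3 site: gcgcagccggGCGGGGGCGggggcagggg
Grm4 peak 3: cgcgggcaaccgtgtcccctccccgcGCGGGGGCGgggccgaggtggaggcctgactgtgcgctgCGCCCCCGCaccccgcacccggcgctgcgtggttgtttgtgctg
Grm8 peak 1: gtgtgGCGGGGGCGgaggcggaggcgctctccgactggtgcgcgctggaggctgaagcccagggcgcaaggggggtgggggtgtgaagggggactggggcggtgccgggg

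The Grm4 peak held 2 exact elements facing each other, so that the downstream one appears as its reverse complement in the line above. In the Grm8 peak the exact element was followed by a repeat of the form GCGGAGGCG, which occurred at 2 overlapping positions and differs from the element by G5A, with positions counted from 1 at the 5′ end of the 9-base word. In Grm3 a second word, GCGGGGGCA, overlapped the exact element by 3 bases and differed from it by G9A. The upstream Grm4 element, on the same strand as the gene, was overlapped in the same way by GCGGGGCCG, which differs by G7C.

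At Grm5 and Grm7 the nearest words to the element are shown with 10 bases to each side and the word in capitals. The Grm5 word lies at chr7:87584124-87584152 on the minus strand, opposite to the gene, and differs from GCGTGGGCG by C8T. The Grm7 word, at chr6:110645496-110645524 on the plus strand, is the one nearest to the peak centre of 4 words with 2 mismatches, here C2A and C8A. Both substitutions in the Grm7 word fall in a CpG of the element, as does the one in the Grm5 word.
Grm5 word: gtgctgggagGCGTGGGTGgcatgtcact
Grm7 word: gggagagaggGAGTGGGAGgaggaggagg

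The other stretches near a TSS are shown for comparison, in lower case throughout. The Grm2 peak and the first and second Grm4 peaks held no word with fewer than 2 mismatches. The Grm2 peak (chr9:106664493-106664646) and the first Grm4 peak (chr17:27514169-27514432) are whole. The stretches of the second Grm4 peak (chr17:27513545-27513618) and of the Grm3 peak (chr5:9725353-9725506) are the parts that lie outside annotated UTRs. All 4 are on the minus strand, that of the gene. The Grm3 stretch is the upstream part of its peak and ends within the exact element shown above.
Grm2 peak: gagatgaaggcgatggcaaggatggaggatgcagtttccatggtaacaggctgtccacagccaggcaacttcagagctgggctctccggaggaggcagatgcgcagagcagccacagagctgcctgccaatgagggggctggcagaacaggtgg
Grm4 peak 1: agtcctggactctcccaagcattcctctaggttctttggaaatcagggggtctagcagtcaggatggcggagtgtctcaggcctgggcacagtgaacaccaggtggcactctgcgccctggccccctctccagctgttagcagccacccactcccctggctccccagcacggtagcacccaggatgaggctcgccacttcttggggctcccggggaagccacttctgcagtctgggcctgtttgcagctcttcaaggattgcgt
Grm4 peak 2: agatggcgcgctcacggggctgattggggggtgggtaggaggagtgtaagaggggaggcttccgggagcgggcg
Grm3 peak: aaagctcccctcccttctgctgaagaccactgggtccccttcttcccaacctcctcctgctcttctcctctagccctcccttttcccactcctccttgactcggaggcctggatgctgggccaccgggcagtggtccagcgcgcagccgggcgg

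Grm5, the group I receptor that signals through Gq, had 1 peak of 258 bp at chr7:87584031-87584288. Its centre lay 8.5 bp upstream of the outermost TSS, that of Grm5-206, which RefSeq places at the same base. The IDR was 4.91e-07, rank 2200 of the 12014 peaks when ordered from the lowest IDR. The other annotated starts of Grm5 that open a basic protein-coding transcript were 233.5, 18281.5 and 18384.5 bp from that centre, so 1 of these 3 was within 2 kb of the peak. No other peak was assigned along the 550740 bp of the gene.

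The Grm5 peak was poor in CpG. It held 3 CpGs in 258 bp, 53.5% of its bases were G or C, and its CpG ratio was 0.169. The CpG ratio is the number of CpGs over the number expected from the C and G content. Only 2.28% of the 7598 peaks within 2 kb of any TSS had a lower ratio. Windows as wide as the peak, taken 5 kb upstream and downstream, held no CpG at all and had GC contents of 29.1% and 27.9%.

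Among the group II receptors, which act as presynaptic autoreceptors (Grm2) and on both neurons and astrocytes (Grm3), the peaks differed in where they lay. The Grm3 peak, 253 bp at chr5:9725254-9725506, was centred 210 bp upstream of the single GENCODE TSS of the gene. RefSeq starts Grm3 farther upstream, 28 bp from the peak centre, and that start, base 9725352, is the middle base of the exact element (9725348 to 9725356). The IDR was 2.54e-07, rank 1555. The next peak was 186710 bp from the gene body.

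Grm2 had 1 peak, 154 bp at chr9:106664493-106664646, with an IDR of 5.02e-07 and rank 2224. It lay 8487.5 bp upstream of the nearest Grm2 TSS, just inside the 10 kb of the rule, and the next peak, at 20132.5 bp, was outside it. The Grm2 peak lay inside Tex264, a gene for a receptor that passes endoplasmic reticulum to autophagy, 612.5 bp from the nearest Tex264 TSS and upstream of it. It was thus nearer to that gene than to Grm2. It was the only one of the 9 peaks whose nearest TSS was not that of the member gene, and without it 5 of the 7 members had a peak. Both annotated promoters of Grm2 that open basic protein-coding transcripts had no peak closer than 8487.5 bp.

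Grm4, a presynaptic group III receptor with 8 annotated transcripts, had the most peaks. They stood close together around the starts of Grm4-201 and Grm4-208, and none was assigned elsewhere along the 99017 bp of the gene. In the direction of transcription the first peak (264 bp, chr17:27514169-27514432) lay 574.5 bp upstream of the TSS of Grm4-208. The second (250 bp, chr17:27513369-27513618) held the TSS of Grm4-201, 87.5 bp from its centre. The third (109 bp, chr17:27512008-27512116) lay 1344 bp downstream of that start, in intron 1 of Grm4-201 and of 3 other transcripts. Gaps of 550 and 1252 bp separated them.

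The 3 Grm4 peaks were unlike each other in reproducibility and sequence. The IDR was 1.59e-05 for the first peak (rank 3980), 0.01504633 for the second (rank 11428) and 6.61e-08 for the third (rank 594). The peak over the TSS itself thus had the highest IDR of the 9 and the intron peak the lowest. The CpG ratio was 0.243 in the first, 0.998 in the second and 0.905 in the third, with 6, 28 and 15 CpGs. Both the second and the third peak were CpG-rich, but the second held no word within 1 mismatch of the element and the intron peak held 2 exact elements 15 and 24 bp to either side of its centre.

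Other starts of Grm4 carried no peak. In windows of 1 kb centred on each start of a basic protein-coding transcript, the CpG ratio was 0.953 and 0.788 at the starts beside the peaks. It was 0.351, 0.372 and 0.384 at the starts that lay 7102.5, 8738 and 8758 bp from the nearest peak centre.

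Grm6, the receptor of retinal ON bipolar cells, was the member with no peak. The nearest peak lay 41940 bp downstream of the gene body (IDR 0.000178824) and 2533.5 bp from a TSS of Zfp2. Grm6 is short for this family, at 15524 bp, and 37.6% of the protein-coding genes of its length class had a peak. Of its 3 annotated starts, the 2 that open a basic protein-coding transcript had CpG ratios of 0.39 and 0.658 and held no exact element in the 1 kb window around them. A peak within 2 kb was found at 7.17% and 32.3% of all starts in the CpG classes these belong to. The lack of an exact element was not particular to Grm6. Among such windows of the other members only that of Grm3 held one, also where a peak was near.

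Grm7, a presynaptic group III receptor of low affinity for glutamate found in the active zone, had 1 peak in 921650 bp of gene. It was 173 bp wide, at chr6:110645413-110645585, with an IDR of 2.28e-07 and rank 1445. The starts of Grm7-201, Grm7-202 and Grm7-204 all lay inside it, the nearest 82 bp from its centre, and a RefSeq start lay 13 bp from the centre. The peak also lay inside Gm20387, an annotated gene on the other strand whose nearest start was 417 bp away, so the list does not tell the 2 promoters apart. It held 6 CpGs and had a CpG ratio of 0.401, with 63.0% of its bases G or C.

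The study lists a ChIP-qPCR primer pair for Grm7. The paper reports ChIP-qPCR for EGR1, H3K27ac and TET1, and its main text does not tie this pair to any of them. A site used for TET1 need not be an EGR1 peak. The primers agcattgcacttgtacgtca and tccgaagacaccatacacct each matched the assembled chromosomes of mm10 once, on opposite strands, and frame 213 bp at chr6:110746672-110746884. This amplicon is in intron 1 of Grm7-201 and Grm7-202 and intron 2 of Grm7-204, overlaps no annotated exon of Grm7, and lies 101087 bp from the edge of the Grm7 peak, which was the nearest peak. It held 2 CpGs and no word within 3 mismatches of the EGR1 element. The amplicon and the Grm7 peak are therefore different places in the gene, and the peak list says nothing of binding at the amplicon below the IDR limit.

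Grm8, also a presynaptic group III receptor, had 2 peaks 21839 bp apart. The first, 250 bp at chr6:28133703-28133952, lay 502.5 bp upstream of the TSS of Grm8-204 and 73.5 bp downstream of a RefSeq start. It overlapped an exon of Grm8-207. Its IDR was 4.67e-05 (rank 4593), its GC content 70.0% and its CpG ratio 0.616, with 17 CpGs. The second, 255 bp at chr6:28111609-28111863, was the only peak of the 9 that lay more than 2 kb from every annotated TSS of any gene. It was 14389 bp downstream of the nearest Grm8 start, in intron 1 of Grm8-201 and intron 2 of Grm8-202, with an IDR of 0.000429445 (rank 6266).

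Ordered by IDR, the peaks of the family ran from the third Grm4 peak through Grm7, Grm3, Grm5, Grm2, the first Grm4 peak and the Grm8 peaks to the second Grm4 peak. The IDR was below the median of all peaks (0.000321) for 7 of the 9 and above it for 2, and 5 of the 9 ranked within the best 25% of the list. The median IDR of the 9 was 5.02e-07. Grm5 and Grm2 are neighbours in this order with nearly the same IDR, and the 1 merged value per peak carries no error by which to separate them.

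**Figure D2:**
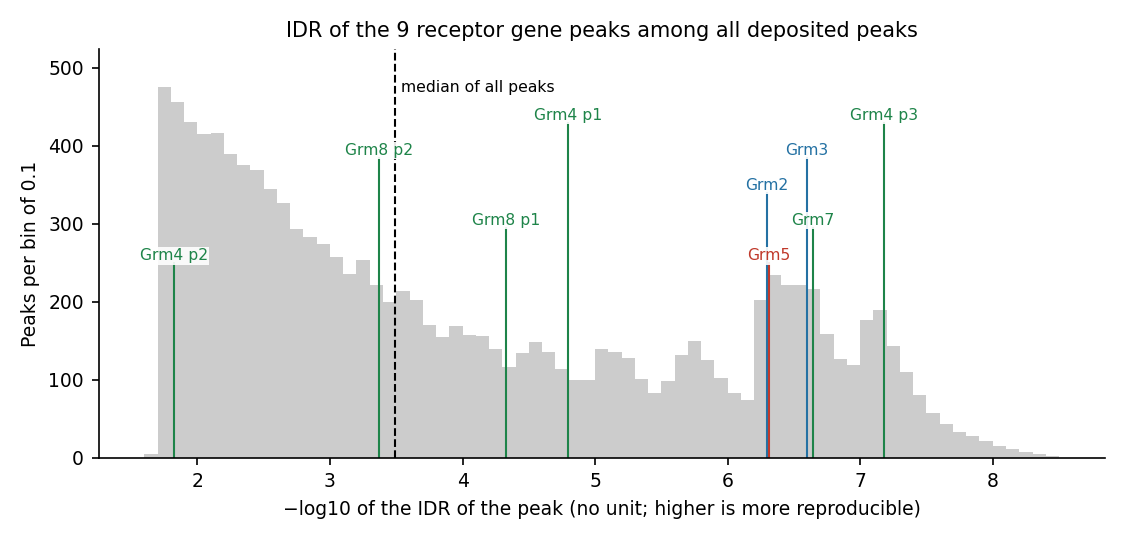
Number of EGR1 peaks (vertical axis) by −log10 of the IDR (horizontal axis, no unit) for all 12014 peaks in grey, with a coloured line for each of the 9 receptor gene peaks (red group I, blue group II, green group III) and a dashed line at the median. The lines of Grm2, Grm3, Grm5, Grm7 and the intron peak of Grm4 stand to the right, at an IDR below 1e-06, and those of the second Grm8 and second Grm4 peaks to the left of the median.

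Over the whole list the median IDR was 9.91e-05 for the 7598 peaks within 2 kb of any TSS and 0.00125 for the other peaks on assembled chromosomes. The 8 receptor peaks that belong to those 7598 were therefore set beside them, 7 near a TSS of their own gene and that of Grm2 near a TSS of Tex264. Of the 8, 7 had an IDR below the median of the class. The quartiles of the CpG ratio over the 7598 peaks were 0.574 and 0.897. Below the lower one were 5 of the 8 receptor peaks (Grm2, Grm3, Grm5, Grm7 and the first of Grm4), and above the upper one were 2, the second Grm4 peak and the Grm4 intron peak. An IDR below 1e-06 was found at 5 of the 8 (Grm2, Grm3, Grm5, Grm7 and the Grm4 intron peak), and 4 of these 5 were below the lower CpG quartile. Of all 7598 peaks 2117 had such an IDR, and 13.4% of these 2117 were below that quartile. The limit of 1e-06 was not set in advance, the receptor peaks are few, and no difference was tested.

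Over all 9 peaks the CpG ratio ran from 0.169 to 0.998 with a median of 0.383, and the GC content from 53.5% to 78.0%. In 8 of the 9 the ratio was above that of both windows 5 kb away, whose values ran from 0 to 0.534. The same was true of 76.5% of the 11914 peaks on assembled chromosomes for which both windows gave a ratio, and of 89.8% of the 7589 such peaks within 2 kb of a TSS. The exception was Grm3, where the ratio of 0.383 in the peak stood between 0.393 on one side and 0 on the other. The GC content of those windows was 34.8% and 42.3%, against 61.3% in the Grm3 peak.

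**Figure D3:**
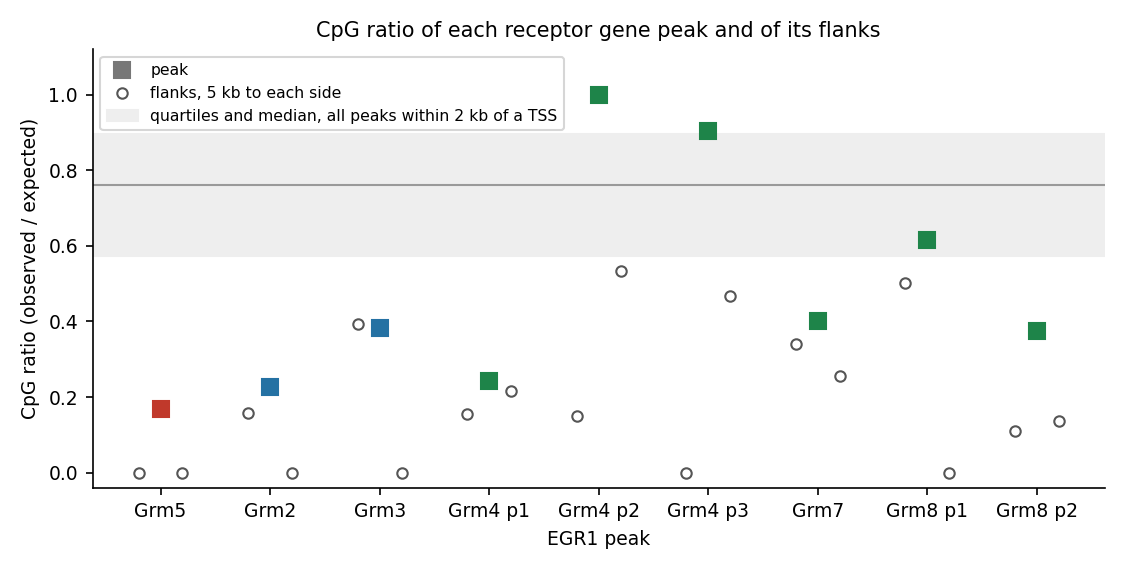
CpG ratio (observed over expected, no unit) of each of the 9 peaks (squares, red group I, blue group II, green group III) and of the windows of its width 5 kb to each side (open circles), with the quartiles and median of all peaks within 2 kb of a TSS in grey. The Grm4 peaks over the TSS and in the intron lie above the grey band, the first Grm8 peak lies in it, and the other 6 lie below it. Among these 6 the second Grm8 peak is not of the class of the band. Of the 4340 peaks over 2 kb from every TSS, where it belongs, 65.7% had a lower ratio.

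The exact element was in 3 of the 9 peaks (33.3%, Wilson interval 12.1 to 64.6, counting error over peaks only), with 4 elements in all, and in 16.6% of the 11938 peaks on assembled chromosomes. Of the 7598 peaks within 2 kb of any TSS, where 8 of the 9 receptor peaks belong, 22.2% held it. All 4 were of the form GCGGGGGCG. They lay 15, 24, 24.5 and 28 bp from the centre of their peak. Of the other 6 peaks, Grm5 had a word with 1 mismatch and 5 had no word closer than 2 mismatches. Among all peaks 53.2% had 1 mismatch at best and 28.3% had 2, and among the 7598 the shares were 59.4% and 17.7%. Peaks with 2 or more elements, like the third of Grm4, made up 1.15% of all peaks. They made up 4.0% of the 10% of peaks with the lowest IDR, to which that Grm4 peak belongs.

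**Figure D4:**
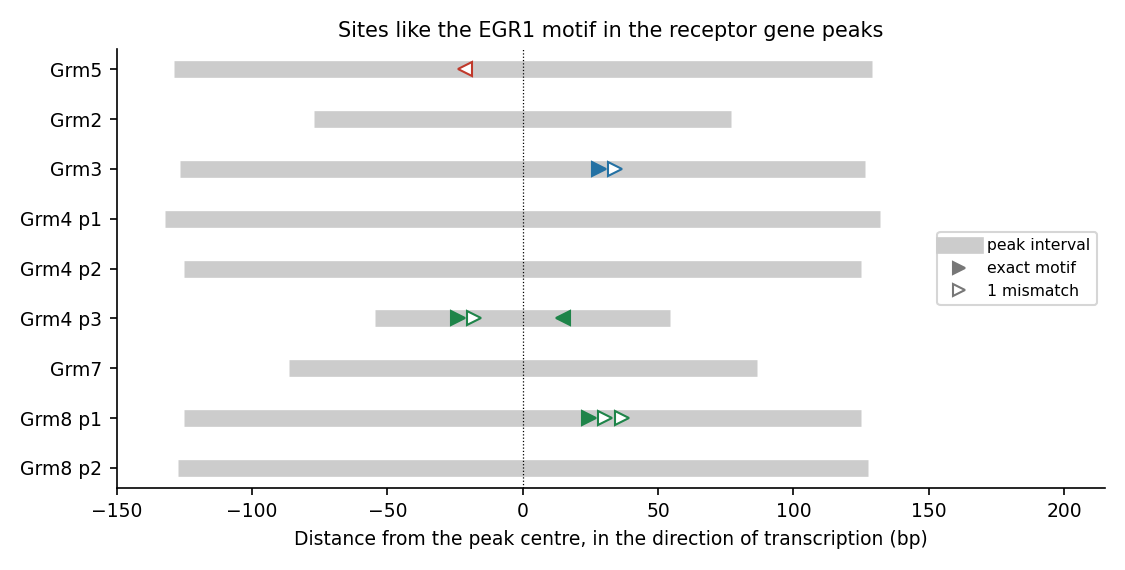
Position of words like the EGR1 element in the 9 peaks, in bp from the peak centre in the direction of transcription, with the peak interval in grey, exact elements filled and words with 1 mismatch open, pointing along the strand on which they read. The exact elements in Grm3, Grm4 and Grm8 lie within 28 bp of the centre, and 5 peaks hold neither kind of word.

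A low IDR did not go with the element in every case. Grm3 and the Grm4 intron peak had both. Grm7, with the second lowest IDR of the family, Grm2 and Grm5 had no exact element, while the first Grm8 peak had one at a higher IDR. Of the 5 receptor peaks within 2 kb of any TSS with an IDR below 1e-06, 2 held the exact element, and of all 2117 such peaks 37.4% did.

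Annotated promoters were scanned for the element whether or not they had a peak. Of the RefSeq promoters of 300 bp, 3.47% of 32851 held an exact element. Of the members, 5 genes (Grm2, Grm3, Grm6, Grm7 and Grm8) matched 8 such promoters by symbol, and the element was in that of Grm3 alone. In the 18 windows of 1 kb around starts of basic protein-coding transcripts of the members, 7 had a peak centre within 2 kb, against 27.9% of the 41438 such windows of all genes. The CpG ratio of these 7 ran from 0.377 to 0.953 with a median of 0.525. In the other 11 it ran from 0.123 to 0.658 with a median of 0.372, and 9 of those 11 belonged to genes that had a peak elsewhere. The ranges overlapped. The Grm3 window, with a ratio of 0.377, was in a CpG class in which 1.47% of starts held an exact element and 7.17% had a peak.

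Most members are long genes, and long genes more often had a peak. Among the 10% of protein-coding genes that are longest, 109945 bp or more, 62.4% had a peak and 43.5% had one within 2 kb of a TSS. Grm3, Grm5, Grm7 and Grm8 belong there, and all 4 had both. In the class of Grm4 the shares were 52.8% and 41.9%, and in that of Grm2 and Grm6 37.6% and 28.9%. For Grm3, Grm4, Grm5, Grm7 and Grm8 the share to compare with is thus above 39.6%.

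**Figure D5:**
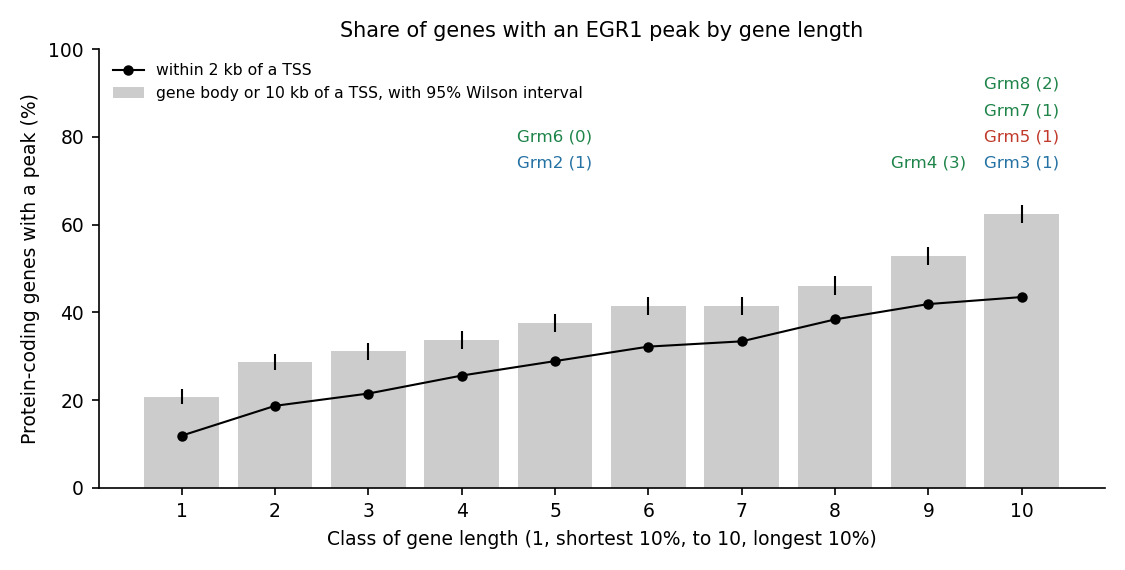
Share of protein-coding genes with an EGR1 peak (percent, bars with 95% Wilson intervals) and with a peak within 2 kb of a TSS (black points) in 10 classes of gene length from the shortest to the longest. The members are written above their class with their number of peaks in parentheses, and the share rises from 20.8% in the shortest class to 62.4% in the longest.

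Genes of the other glutamate receptor families were counted by the same rule. Of the NMDA receptor subunit genes 5 of 7 had a peak, with 17 peaks in all, and of the AMPA and kainate receptor subunit genes 7 of 9, with 15. The share of all protein-coding genes was 39.6%, and that of the longest 10% was 62.4%. Median gene length was 46496 bp in the NMDA list and 318858 bp in the AMPA and kainate list, and the part of length was not tested. The median IDR was 0.000183 over the NMDA receptor peaks and 0.00064 over the AMPA and kainate receptor peaks, against 5.02e-07 over the 9 metabotropic receptor peaks. The families also differed in where their peaks lay. Within 2 kb of a TSS of their own gene were 5 of the 17 NMDA receptor peaks, 6 of the 15 AMPA and kainate receptor peaks and 7 of the 9 metabotropic receptor peaks. The median IDR of these was 5.65e-07, 0.000364 and 4.91e-07 in that order, and the part of position in the medians over all peaks was not tested. An exact element was in 2 of the 17 and 1 of the 15 peaks, against 3 of the 9. It was in 16.6% of all peaks on assembled chromosomes and in 22.2% of those within 2 kb of any TSS. None of these differences was tested, since each gene gives 1 merged value.

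Across 7 lists of genes tied to these receptors, from signalling and desensitisation to glutamate transport, 37 of 53 (69.8%) had a peak, against 39.6% of all protein-coding genes. A peak within 2 kb of a TSS was found at 30 (56.6%), against 29.6% of all. The lists were chosen with earlier results of these data known, so these shares do not measure a preference of EGR1 for such genes. Gene length was not matched here, and the share of all genes with a peak rose from 20.8% in the shortest class to 62.4% in the longest. The median length of a list ran from 19969 to 338014 bp, and the part of length was not tested. In Gq and phospholipase C signalling, the arm used by Grm5, 8 of 9 had a peak. The lowest IDRs there were those of Plcb3 (1.09e-08), a phospholipase C, and Prkcb (1.05e-06), a protein kinase C, and the gene without a peak was Plcb4, another phospholipase C. The 3 peaks of Plcb3 all lay more than 2 kb from its own starts. These genes are long, with a median of 338014 bp.

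In Gi/o signalling and GIRK channels, the arm used by groups II and III, 6 of 8 had a peak. Gnao1, the main Go subunit of neurons, had an IDR of 4.02e-07 and Gnai2 one of 7.4e-06. Gnaz, a Gi/o family subunit, and Kcnj3, a GIRK channel subunit, had none. The GIRK channel genes Kcnj6 and Kcnj9, named after their values were seen, had 5 peaks and 1 peak. Those of Kcnj6 all lay more than 2 kb from its own starts.

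Of the scaffolds and receptor partners 9 of 12 had a peak, each with at least 1 within 2 kb of a TSS. Shank1, a postsynaptic scaffold tied to Grm5 through Homer proteins, had 8 peaks with a lowest IDR of 9.74e-09. Ncdn, which encodes the Grm5 partner neurochondrin, had 3 with a lowest IDR of 1.77e-08. Homer2, Homer3 and Siah1a had none. Homer1, of the same family as Homer2 and Homer3 and named after its value was seen, had 1 peak (2.38e-07).

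Of the desensitisation genes 5 of 8 had a peak, led by the arrestin Arrb2 (2.05e-07) and the receptor kinase Grk2 (5.75e-07), whose peaks were more than 2 kb from its starts. Rgs4, Rgs7 and Rgs8, regulators of G protein signalling, had none, while Rgs2 of the same family, named after its value was seen, had 1 peak (5.21e-05). Of the glutamate transport genes 4 of 7 had a peak. They included Slc17a7 (3.55e-08), the vesicular transporter of cortical excitatory neurons, and Slc1a2 (1.96e-07), the main astrocyte transporter. Slc1a3, the other astrocyte transporter, and the vesicular transporters Slc17a6 and Slc17a8 had none.

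In endocannabinoid release, which Grm5 can drive, Dagla (9.56e-08) and Mgll (5.52e-06) were among the 3 of 4 genes with a peak. The Mgll peak lay more than 2 kb from its own starts. Dagla makes the messenger and Mgll breaks it down. Cnr1, its receptor, had none. In the retinal cascade of Grm6, 2 of 5 had a peak, Nyx (2.49e-07) and Rgs11 (1.58e-06), and that of Nyx was more than 2 kb from its own starts. Trpm1, the channel of the cascade, Gpr179 and Lrit3 had none. That list had the lowest share of the 7, at 40.0%, close to the 39.6% of all protein-coding genes.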

How the data were processed

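EGR1 ChIP-seq of frontal cortex was deposited as 1 list of peaks (chromosome, start, end and IDR). Before that, the authors quality-trimmed and aligned the reads to mm10 (Bowtie), ran the peak caller SPP on each of 2 replicates, and merged the peaks that passed an IDR of 2%. The submitters' processing notes name Bowtie2 2.2.9, cutadapt and bedtools 2.26.0. The deposited IDR is a measure of reproducibility that is read like a q-value and no p-value was computed from it. The start column was taken as counting from 0, as BED does, because how positions are counted is not given in the sources used here.

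Peak centres were assigned to genes of GENCODE M21. Sequence was read from GRCm38, the assembly of mm10, for the 11938 peaks on assembled chromosomes (another 76 are on scaffolds and were not used for sequence). Motifs were searched on both strands. UTRs were those of GENCODE or, for the members, RefSeq coding transcripts, and RefSeq promoters were those of the same assembly. Only 1 merged value exists per peak, so there were no groups to compare, no test was run, and intervals are 95% Wilson intervals over genes or peaks. The depth is unknown. Text on the members covers every peak, and of each list of pathway genes it names those without a peak and the 2 with the lowest IDR. Pathway genes outside this rule are marked as named after their values were seen. The members and lists were chosen with earlier results of these data known. Alternatives were another window, IDR limit, annotation, motif, flank and length class. Python 3.11.15, numpy 2.4.6, pandas 2.3.3, pysam 0.24.0, matplotlib 3.10.9 and samtools 1.23.1 were used, and gene assignment, motif search and the CpG ratio were tested on simulated data.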

Additional observations from a re-analysis of the deposited data

How the results depend on the processing

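Of 46 alternatives 27 left the value within its limit, that is within 1.5 times a count or within the interval of the share. A median or a distance counted as within its limit only if it was unchanged, and no direction was compared. The number of members with a peak was 5 or 6 under every alternative but the gene body alone, which gave 2 members and 5 peaks, since the peaks of Grm2, Grm3, Grm5 and Grm7 are centred upstream of the gene body. The share of protein-coding genes with a peak was 34.2% with 2 kb around each TSS, 23.9% with the gene body alone, 58.7% with 50 kb, 37.0% at an IDR of at most 0.01, 29.0% at 0.001, 25.8% in the 50% of peaks with the lowest IDR, 38.4% with basic transcripts and 29.6% within 2 kb of a TSS. It was 47.4% among genes at least as long as Grm2, the shortest member, and 61.6% among those of 100 kb or more. The median CpG ratio of the member peaks was 0.388 in 250 bp windows, 0.392 over the 8 peaks within 2 kb of a TSS of any gene and 0.375 far from one (1 peak), and that of the flanks 0.209 at 2 kb and 0.129 at 10 kb. The median IDR of the 7 peaks within 2 kb of a TSS of their own gene was 4.91e-07, and the Grm7 amplicon was 101279 bp from the nearest peak from centre to centre. Requiring the nearest TSS to be that of the member gave 8 peaks at 5 members, and RefSeq starts within 2 kb gave 5 members. The last 2 settings were chosen after seeing the data. No paired analysis was possible because the list holds 1 merged value per peak, and for the same reason no replicate could be left out.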

Other observations

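Other words were looked for in the 9 receptor gene peaks on both strands. The GC box GGGCGG, which can share bases with the EGR1 element, was in 5 of the 9 (Grm3, the intron peak of Grm4, Grm5, Grm7 and the first of Grm8) and in 55.8% of all peaks. Of the peaks within 2 kb of any TSS, where 8 of the 9 belong, 71.5% held it. The cAMP response element TGACGTCA, the word bound by CREB, was in none of the 9 and in 1.3% of all peaks.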
